A study of Mus musculus with 2 samples.

Results

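The 39 Hox genes of clusters A, B, C and D were examined in mouse embryonic tissue labelled brain and profiled by SPARC-seq, an assay in which each barcode carries both transcripts and accessible DNA. The members were all genes of the count matrix named Hox followed by a cluster letter and a number, 39 of 32285 genes, with 11 in cluster A, 10 in cluster B, 9 in cluster C and 9 in cluster D. The tissue was taken at E18.5 on the C57BL/6 background and was homozygous for the Ctcf mutation, R567W, introduced with CRISPR/Cas9. Each readout had 1 library, both of that genotype. Wild-type tissue was not analysed here, so no value below measures an effect of the mutation. Without replicates no test was possible, and every interval is a 95% interval that covers counting error only. The first question was which members were transcribed and which had open promoters, and the next was how both varied over the tissue.

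Hox genes encode homeodomain transcription factors that give cells their position along the head to tail axis. Low-numbered genes lie at one end of each cluster and are known for expression up to the hindbrain, whereas high-numbered genes act in the trunk, limbs and tail. The forebrain is known to lack Hox expression. CTCF, the protein altered in this embryo, binds DNA as an insulator, and sites between Hox genes are known to separate active from silent chromatin. The Meis, Pbx and Pknox proteins bind DNA together with Hox proteins, Cdx factors and retinoic acid activate Hox genes, and Polycomb proteins keep them silent.

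After filtering, 1992 of 1993 matrix barcodes were kept, with a median of 4157 UMIs (907 to 12442) and of 21705 fragments (5759 to 87572). The barcodes combined 50 first segments with 50 second segments and each stood for a spot that may cover several cells, whose position was not used. Spots that share a segment are called a strip here. In spots, fewer cells of a type and less RNA per cell cannot be told apart. The brain label was checked against marker lists: the neuron list, with 8 of 8 genes detected, summed to 3590 CPM and the forebrain list, with 16 of 16, to 611 CPM, but the muscle list, with 13 of 13, reached 6248 CPM. The midbrain and hindbrain list had 132 CPM, with 14 of 16 genes detected. The motor neuron list had 33.1 CPM, with 6 of 7. The trunk paraxial mesoderm list had 47.4 CPM, with 5 of 5.

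Sequences are shown for the places on which the results turn, all from GRCm38. The promoter table, taken from RefSeq on GRCm38.p6, matched 22 of the 39 members, and each entry runs from 250 bases before to 50 after a gene's start. Hoxa5 had the most RNA per kb of exon (chr6:52204538-52204837, minus strand), Hoxb8 was the highest-numbered member with more than 10 UMIs (chr11:96281655-96281954, plus strand), and Hoxa13 had an open promoter with 0 UMIs (chr6:52260831-52261130, minus strand). Capitals mark CG dinucleotides, 29, 13 and 45 of them.
Hoxa5 promoter: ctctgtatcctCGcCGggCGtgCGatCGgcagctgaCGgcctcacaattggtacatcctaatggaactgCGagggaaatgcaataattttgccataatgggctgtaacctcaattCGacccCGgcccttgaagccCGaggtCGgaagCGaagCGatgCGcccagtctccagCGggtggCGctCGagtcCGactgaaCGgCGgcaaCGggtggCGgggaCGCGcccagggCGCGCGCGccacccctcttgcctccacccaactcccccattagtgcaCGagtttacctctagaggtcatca
Hoxb8 promoter: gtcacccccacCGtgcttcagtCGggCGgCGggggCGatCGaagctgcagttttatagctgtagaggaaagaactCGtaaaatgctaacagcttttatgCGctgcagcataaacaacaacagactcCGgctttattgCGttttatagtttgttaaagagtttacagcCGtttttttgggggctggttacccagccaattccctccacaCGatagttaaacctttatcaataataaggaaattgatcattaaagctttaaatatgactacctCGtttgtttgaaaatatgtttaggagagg
Hoxa13 promoter: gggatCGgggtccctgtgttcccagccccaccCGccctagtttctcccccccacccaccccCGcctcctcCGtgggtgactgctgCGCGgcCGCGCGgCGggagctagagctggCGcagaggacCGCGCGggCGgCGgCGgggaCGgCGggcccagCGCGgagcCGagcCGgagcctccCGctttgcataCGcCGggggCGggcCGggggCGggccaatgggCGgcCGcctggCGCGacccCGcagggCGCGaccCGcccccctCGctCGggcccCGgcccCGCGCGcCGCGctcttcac

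The other 5 sequences are matches to the CTCF core consensus, with 1 mismatch allowed, and are all those between the TSS of the member numbered 9 and that of its neighbour of the next lower number. Capitals mark the 13 bases of the match, read 5′ to 3′ on its own strand with the bases beside it. The match of cluster A lies at chr6:52221808-52221820 on the minus strand between the TSSs used for Hoxa7 and Hoxa9 and inside the annotated span of Hoxa7, close to its outermost 5′ end, and that of cluster B at chr11:96278948-96278960 on the plus strand between Hoxb9 and Hoxb8. A second match of cluster B lies between the same members at chr11:96276756-96276768 on the minus strand. The match of cluster C lies at chr15:102985723-102985735 on the minus strand between Hoxc9 and Hoxc8, and that of cluster D at chr2:74702395-74702407 on the plus strand between Hoxd9 and Hoxd8.
Cluster A match: agaaaattCCAGGAGATGGCAgtgtggctc
Cluster B match: cacagtggCCGCTAGATGGCAtccttgctc
Cluster B second match: ttgggtacCCACCAGGTGTCAgcaccacca
Cluster C match: tcctacagCCACCAGAGAGCAccccattcc
Cluster D match: gcatttggCCACTAGAGAGCGctgttgctc

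Hox RNA was scarce and came almost entirely from members numbered 1 to 8. The 39 members summed to 430 UMIs, or 49.4 CPM (44.8 to 54.3). Of these, 27 were detected and 13 had at least 10 UMIs, against 87.8% and 70.2% of 21702 protein-coding genes. Members numbered 1 to 8 held 423 UMIs and members numbered 9 to 13 held 7. Per kb of exon, the former were 40.7 times higher (19.6 to 101.9). Exon length here joins the exons of all transcripts of a gene, and whether UMIs rise with it was not tested. The difference was present in every cluster, with ratios of 40.2 in cluster A (10.8 to 336.5), 24.1 in B (6.58 to 199.9), 36.2 in C (6.13 to 1464) and 35.9 in D (9.54 to 302.9). The lowest bound was thus 6.13, in cluster C. This split was adopted after UMIs had been seen, so the ratios describe it and do not place the fall at number 9. In cluster A the count fell from 50 at Hoxa5 to 2 at Hoxa6, and in C from 15 at Hoxc5 to 1 at Hoxc6.

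Cluster B held 219 UMIs, 50.9% of the Hox total. Hoxb3, an anterior member patterning the hindbrain, had the most UMIs of all with 84 (67.0 to 104.0) and 19.8 UMIs per kb of exon. Hoxb5 had 45 (32.8 to 60.2), Hoxb8 31 (21.1 to 44.0), Hoxb6 25, and Hoxb4 and Hoxb7 14 each. From number 8 to number 9 the count went from 31 to 1: Hoxb9 and Hoxb13 had 1 UMI each. At the other end, Hoxb2 had 4 and Hoxb1, a gene of hindbrain rhombomere identity, had 0. A count of 0 allows up to 3 UMIs, or 0.344 CPM, and this limit holds for each member with no UMI.

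Cluster A held 104 UMIs. Hoxa5, which acts in the neck, lung and brainstem, had 50 (37.1 to 65.9) and the highest level per length of the 39 members, 26.6 UMIs per kb of exon. Hoxa3 followed with 20 UMIs and Hoxa4 with 16, then Hoxa2 with 7, Hoxa7 with 5 and Hoxa6 with 2. Hoxa9 and Hoxa10 had 1 UMI each, and Hoxa11 and Hoxa13, genes of limb and urogenital development, had 0. On the per-length scale Hoxa5 and Hoxb3 (19.8) had overlapping intervals, so their order is not settled there. Hoxa5 and Hoxa4 (10.04) differed on it beyond counting error. In raw UMIs Hoxb3 was higher, with 84 (67.0 to 104.0) against 50 (37.1 to 65.9) for Hoxa5, so the order depends on the scale.

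Cluster D held 66 UMIs, of which Hoxd3 had 42 (30.3 to 56.8), Hoxd4 14 and Hoxd8 8. Hoxd10 and Hoxd11 had 1 each, and Hoxd1, Hoxd9, Hoxd12 and Hoxd13 had 0; Hoxd11 to Hoxd13 are known for limb and digit patterning. Cluster C held the fewest, 41 UMIs, with 24 of Hoxc4 (15.4 to 35.7), 15 of Hoxc5 and 1 each of Hoxc6 and Hoxc13. Hoxc8, Hoxc9, Hoxc10, Hoxc11 and Hoxc12, which pattern trunk and hindlimb levels, had 0. Cluster C thus had 39 of its 41 UMIs in numbers 4 and 5, whereas in the other clusters Hoxa7, Hoxb8 and Hoxd8 had 5, 31 and 8 UMIs.

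Annotated gene spans overlap, which limits some of these counts. Hoxa4, Hoxa5 and Hoxa6 lie within the span of Hoxa3 on the same strand, Hoxd4 within that of Hoxd3, and Hoxc6, Hoxc8 and Hoxc9 within that of Hoxc5, which Hoxc10 overlaps in part while starting outside it. How the pipeline handled reads shared by such genes, introns and strand was not given in the sources used here, so the split within these groups, including the 0 of Hoxc8 to Hoxc10, is uncertain. Summed over the clusters, number 3 had 146 UMIs, number 5 had 110 and number 4 had 68, while number 12 had 0.

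**Figure D1:**
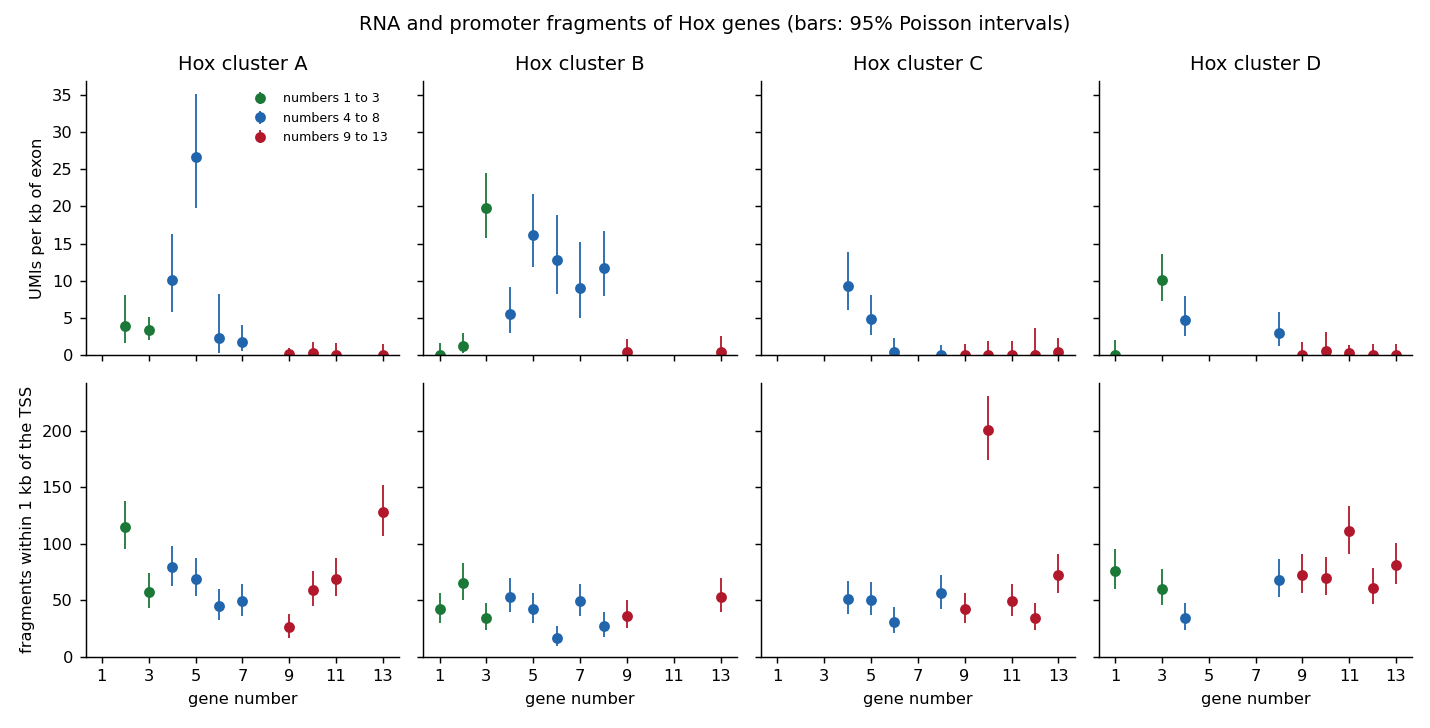
Upper row: UMIs per kb of exon for the members shown, against their number in clusters A to D. Lower row: fragments within 1 kb of the start of the gene (TSS). Bars are 95% Poisson intervals. RNA is near 0 from number 9 on in all clusters, whereas promoter fragments are not near 0 there and are highest at Hoxc10, with 201. These counts were not set against the fragment density of whole clusters, 20.9 to 26.9 per kb.

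Over all clusters, promoter fragments were not lower in the members with little RNA. The 39 promoters held 2478 fragments (2381 to 2578), and members numbered 1 to 8 had fewer per promoter than members numbered 9 to 13, with a ratio of 0.785 (0.725 to 0.850). Central members, numbers 4 to 8, stood at 0.660 of posterior ones (0.600 to 0.725), although their RNA per kb of exon was 44.2 times higher (21.2 to 111.1). Anterior members, numbers 1 to 3, had 1.02 times the posterior fragments (0.923 to 1.13), but in cluster A they had 1.499 times (1.27 to 1.77). The direction differed between clusters: the ratio of numbers 1 to 8 over 9 to 13 was 1.13 in cluster A (0.980 to 1.31), 0.924 in B (0.729 to 1.18), 0.590 in C (0.494 to 0.704) and 0.753 in D (0.639 to 0.887). In cluster C, Hoxc10 alone held 201 of the 398 posterior fragments. The median per promoter there was 50.5 in central and 49 in posterior members, so the ratio of cluster C rests on that promoter. Hoxc10 also enters the ratios over all clusters. Over the 39 members, UMIs and fragments had a Spearman rho of -0.27, given as a description, since the members share 1 library for each measure.

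The most open Hox promoter was that of a gene with no UMI counted. Hoxc10, a lumbar and hindlimb gene, had 201 fragments (174 to 231) and 0 UMIs, at percentile 57.3 of protein-coding promoters. The outermost annotated 5′ end of Hoxc5, which had 15 UMIs, lies within 1 kb of the Hoxc10 TSS on the same strand. Fragments of the 2 gene starts cannot be told apart in that window. Other promoters with over 100 fragments included Hoxa13, with 128 fragments and 0 UMIs, Hoxa2 with 115 and 7 and Hoxd11 with 111 and 1. The lowest promoter was that of Hoxb6, with 17 fragments (9.90 to 27.2) and 25 UMIs. In cluster B, which held 50.9% of Hox UMIs, the highest promoter was Hoxb2 with 65 fragments. In cluster A the lowest was Hoxa9 with 26, in cluster C Hoxc6 with 31 and in cluster D Hoxd4 with 34.

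Hox promoters were low within the library, but none was without fragments. The counts were not set against the fragment density of the clusters themselves, given below, so openness above their surroundings is not shown for Hox promoters. Their median percentile among protein-coding promoters was 26.9, with a median of 56 fragments against 159. The 20 members with at most 1 UMI had a median of 60 fragments, whereas the 3708 protein-coding genes with at most 1 UMI had a median of 23. The 13 members with at least 10 UMIs had a median of 50. The 12 members with 0 UMIs ranged from 34 fragments at Hoxc12 to 201 at Hoxc10. Between them lay Hoxb1 and Hoxc9 with 42 each, Hoxc11 with 49, Hoxc8 with 56, Hoxd12 with 61, Hoxa11 with 69, Hoxd9 with 72, Hoxd1 with 76, Hoxd13 with 81 and Hoxa13 with 128. Some of these windows, those of Hoxc10 and Hoxd1 among them, also hold the annotated start of another gene.

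The central class had the fewest CG dinucleotides as well as the fewest fragments per promoter. The 22 matched members had a median of 17.5 CG dinucleotides (4 to 45), against 14 over 20214 protein-coding promoters of the table. The median was 20 in 5 anterior, 11 in 8 central and 21 in 9 posterior promoters, and the part of base composition in the fragment counts was not tested. The letters TATAAA, searched on both strands, were found in 4 of the 22 and in 12.2% of the protein-coding promoters. CG and TATAAA cannot overlap. The other 17 members, among them Hoxc10, were not in the table.

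Inside the clusters lay 23 of the 91223 peaks, 8 in A, 7 in B, 3 in C and 5 in D, with a median of 100 cut sites against 105 over all peaks. A peak within 1 kb of a TSS was found for 8 members, beside 62.7% of protein-coding genes, and these included Hoxa4, Hoxa13, Hoxc10, Hoxd3, Hoxd8, Hoxd11 and Hoxd13. Cluster B, with most of the RNA, had no peak at a Hox TSS. The strongest peak had 324 cut sites at the Hoxc10 promoter (chr15:102966321-102967200, centred at -36 bases from the TSS), at percentile 88.6 of all peaks. The next lay over 1 kb from the TSS used for any member, with 181 cut sites between Hoxb9 and Hoxb8 (chr11:96278494-96279386), 164 in cluster A with Hoxa2 as the nearest member (chr6:52172281-52173145) and 162 between the TSSs of Hoxa7 and Hoxa9 (chr6:52221295-52222184). The peak with 164 holds the annotated start of Gm15050, and the peak with 162 holds the outermost annotated 5′ end of Hoxa7, so neither is away from all gene starts.

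**Figure D2:**
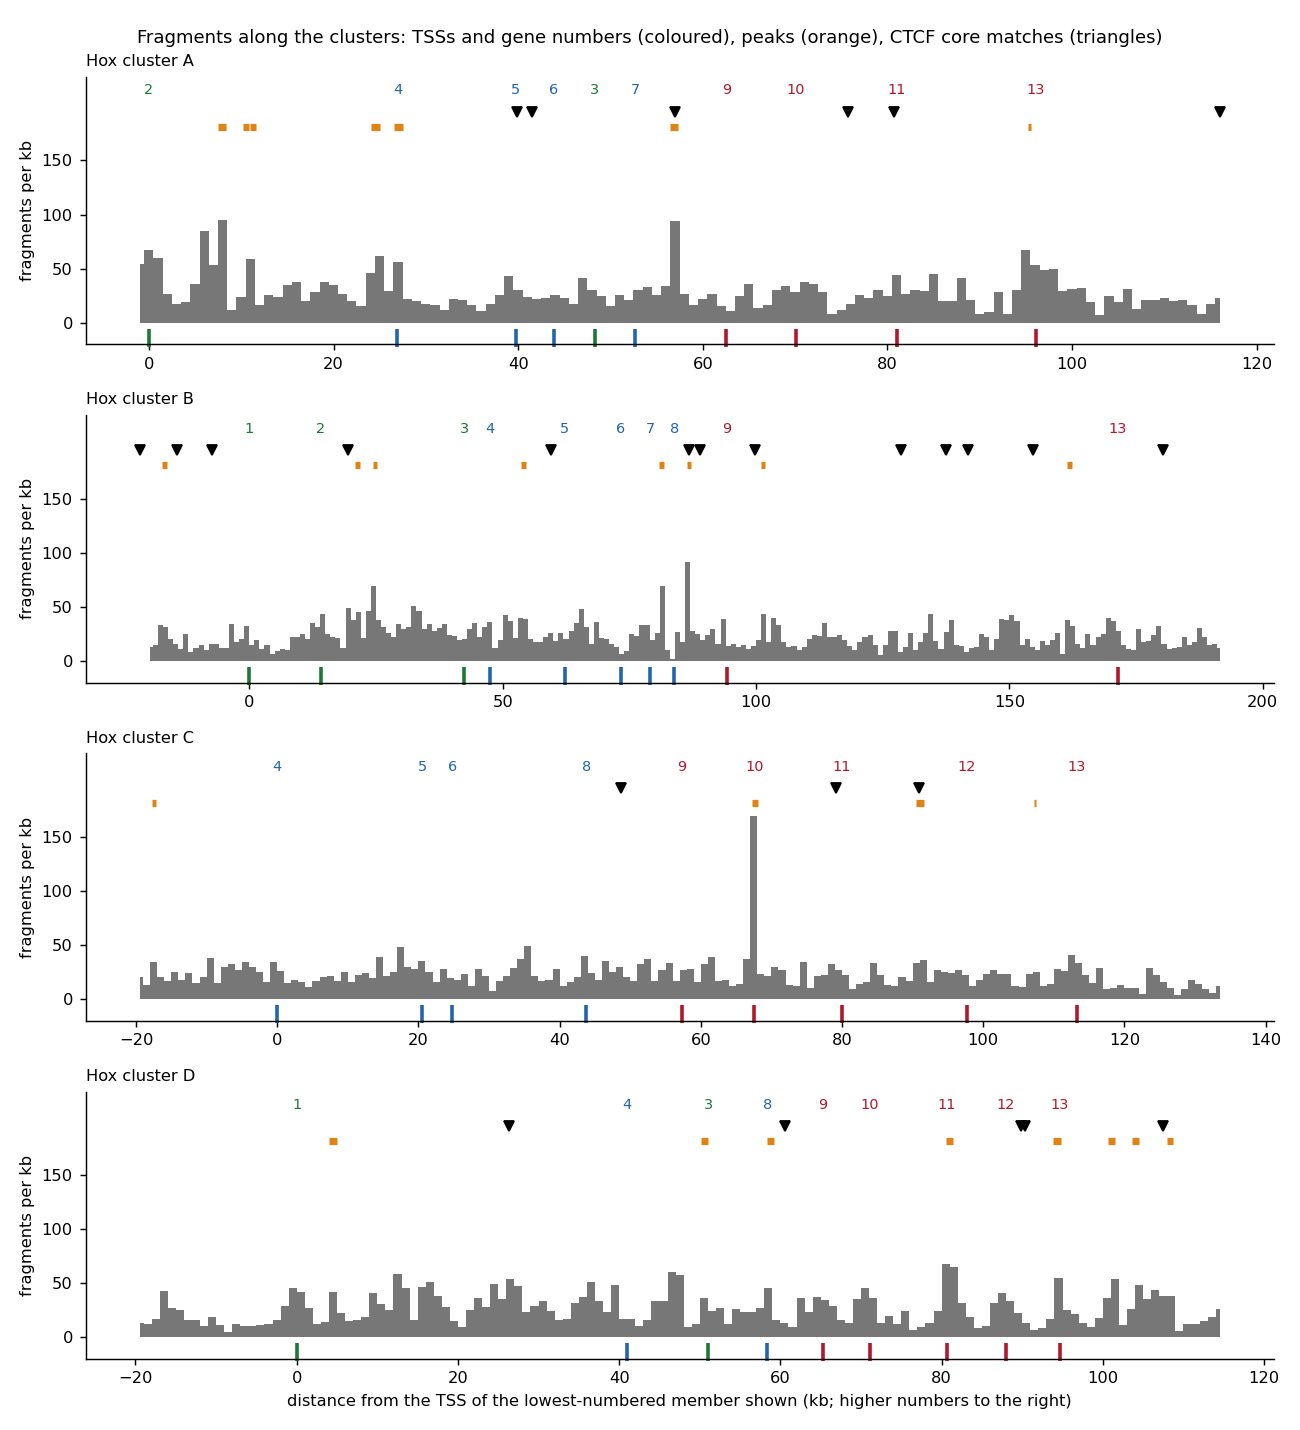
Fragments per kb (grey) along each cluster, against distance in kb from the TSS of the lowest-numbered member shown, with cluster A drawn from Hoxa2 on; coloured marks and numbers give the TSSs of members, orange bars the peaks and triangles the CTCF core matches. The highest bar is at number 10 of cluster C, and clusters A and B each have a bar with a triangle between number 9 and the next lower number. The TSS of Hoxa3 and of Hoxd3 is the most upstream start of a principal transcript, so number 3 stands out of order there.

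Fragment density over whole clusters was between 20.9 per kb in B and C and 26.9 per kb in A, with 23.9 in D, against 17.2 over the genome. Compared with 100 kb on each side, cluster A was 1.47 times and cluster D 1.65 times as dense, whereas B (0.946) and C (1.001) did not stand above their surroundings.

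No exact match of the 13-base CTCF core was found in 651.8 kb covering the clusters and 20 kb on each side, where the rate of the main chromosomes would give 2.42. With 1 mismatch there were 28, 7 in A, 13 in B, 3 in C and 5 in D, or 4.30 per 100 kb against 5.42 over the main chromosomes. Several of the 28, mostly in cluster B, carry nearly the same core letters and had 0 to 6 insertions at their centres. Repeated sequence was looked for only around the matches next to number 9. The mix of sites may thus differ from that of the main chromosomes. Insertions within 50 bp of these 28 were 2.55 times as dense as 200 to 1000 bp away (2.24 to 2.90), against 1.62 for 143421 such matches on the main chromosomes. The match with most insertions carried much of this: without it the ratio was 1.79 (1.54 to 2.09).

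That match is the one of cluster B between Hoxb9 and Hoxb8, with 90 insertions at its centre and a ratio of 22.3 (16.01 to 31.2). It lies inside the peak with 181 cut sites, at -2951 bases from the Hoxb8 TSS. Of 20 words of 50 bases taken around it, 1 occurred more than once on the main chromosomes. The match of cluster A, inside the outermost 5′ end of Hoxa7, had 39 insertions and a ratio of 4.72 (3.21 to 6.80), inside the peak with 162 cut sites. Insertions at a CTCF match and at a gene start cannot be told apart there. In cluster C, where Hoxc9 and Hoxc8 both had 0 UMIs, the match between them had 13 insertions and a ratio of 3.49 (1.76 to 6.45), in no peak. In cluster D, the match between Hoxd9 and Hoxd8 had 18 insertions, but its flanks had only 6, so its ratio of 47.6 rests on a nearly empty flank; none of 20 words of 50 bases taken around it recurred on the main chromosomes. A second match between Hoxb9 and Hoxb8 had 4 insertions and a ratio of 1.22 (0.320 to 3.32). These places were picked out after their values had been seen. A match is a stretch of letters, and whether CTCF, mutant or not, was bound there was not measured.

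**Figure D3:**
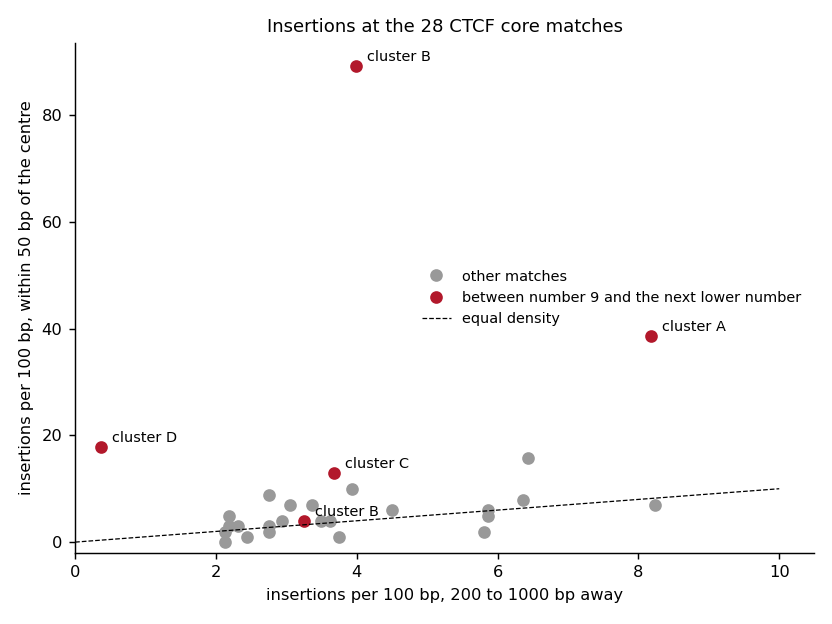
Insertions per 100 bp within 50 bp of each of the 28 CTCF core matches, against insertions per 100 bp 200 to 1000 bp away; the dashed line marks equal density. Of 5 matches between the TSSs of number 9 and the next lower number (red), 4 lie above the line by ratios of 3.49 to 47.6 and the other has a ratio of 1.22.

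Of 17 other genes annotated inside the clusters, 11 were detected. Hoxb3os, antisense to Hoxb3 and Hoxb2, had 56 UMIs and Hotairm1, in cluster A, had 52, more than all members but Hoxb3. Gm11536, antisense to Hoxb3, had 21, Hoxaas3 13, Hoxaas2 and Hoxb5os 12 each and Hoxd3os1 9. Gm15050 and Haglr had 3 each, and Gm53 and Gm14396 had 1. Hotair, Hoxa11os, Gm29430, Gm28793, Gm14424 and Gm14426 had 0, and of these Hotair and Hoxa11os lie beside members numbered 11 and 12, which had 0 as well. Since strand handling is not known, reads of an antisense gene and of its partner cannot be told apart.

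Single spots rarely held more than 1 Hox UMI. At least 1 was seen in 364 of 1992 spots, or 18.3% (16.6% to 20.04%), where 19.1% would be reached if Hox UMIs followed the spots' totals. The median depth was 4652.5 UMIs in these spots and 4064.5 in the others. Calculated for 2000 UMIs per spot, the expected share was 9.55%, with 161 shallower spots left out. UMIs of 2 or more members occurred in 46 spots. Spots with a Hox UMI had 1.08 times the promoter fragments of the others (0.977 to 1.18) over all members, so no difference was detectable at this depth. The lists that were higher in these spots were pituitary at 1.25 times (1.12 to 1.40), epithelium at 1.19 (1.06 to 1.33), choroid plexus at 1.18 (1.13 to 1.23), muscle at 1.14 (1.12 to 1.16) and connective tissue and bone at 1.09 (1.046 to 1.13). The neuron list stood at 0.968 (0.941 to 0.996), the forebrain list at 0.963 (0.899 to 1.031), the midbrain and hindbrain list at 0.962 (0.827 to 1.12), the trunk paraxial mesoderm list at 0.962 (0.744 to 1.23) and the motor neuron list at 0.761 (0.543 to 1.047). What share of these UMIs came from free RNA was not tested.

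Along strips of the second segment, Hox RNA was higher where forebrain RNA was low. The 12 strips lowest in the forebrain list had 117 Hox UMIs, 65.4 CPM (54.1 to 78.3), and the 12 highest had 61, 29.7 CPM (22.7 to 38.1). The ratio was 2.20 (1.60 to 3.06) and lay between 2.03 and 2.59 when any 1 strip was left out. With strips of the first segment it was 0.969 (0.732 to 1.28), so the relation was not seen when spots were grouped by that segment. Why the groupings differ was not tested. The forebrain list itself had 475 CPM in the 12 lowest strips and 859 in the 12 highest, against 611 over the library. The lowest strips thus still held forebrain RNA, and those ranked 1 and 2 from the bottom had 4 and 2 spots. The groups also differed in other lists: the choroid plexus list had 2897 against 680 CPM, the pituitary list 431 against 101, the muscle list 6022 against 4751 and the midbrain and hindbrain list 116 against 181, and their part in the result was not tested. The trunk paraxial mesoderm list was at 47.5 against 54.4 CPM.

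Central members had 83 against 35 UMIs, a ratio of 2.73 (1.82 to 4.17), and anterior members had 32 against 24, a ratio of 1.53 (0.875 to 2.72). These intervals overlap, and the difference between the classes was not tested. In both groups together 3 members had at least 20 UMIs, and all were past 2-fold. Over all 13196 genes with that many, 1.96% were. The members reached the minimum through the forebrain-poor strips, where they were high, so nothing is read from this count. Hoxb5 had 19 against 3 UMIs, a ratio of 7.28 (2.14 to 38.4). Hoxa5 and Hoxb3 each had 18 against 8, a ratio of 2.59 (1.07 to 6.87). Below that minimum, Hoxa4 had 10 against 0, Hoxc5 6 against 0 and Hoxb7 5 against 0, whereas Hoxa3 had 3 against 8 and Hoxb6 5 against 7.

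Over all members the ratio of promoter fragments was 1.12 (0.987 to 1.28). With a window of 2 kb it was 1.15 (1.046 to 1.27), an interval that leaves out 1. Anterior promoters were 1.81 times as high in forebrain-poor strips (1.37 to 2.43), whereas central ones stood at 0.878 (0.695 to 1.11) and posterior ones at 1.04 (0.864 to 1.26). The anterior ratio came mainly from numbers 1 and 2. Members numbered 3, with 146 of the 159 anterior UMIs, had ratios of 0.842 (Hoxa3, 0.308 to 2.34), 0.821 (Hoxd3, 0.345 to 1.97) and 1.36 (Hoxb3, 0.411 to 5.18). Hoxd1 had 26 against 5 fragments, a ratio of 3.94 (1.49 to 13.1), with 0 UMIs in the library. Haglr, which had 3 UMIs, starts on the other strand within 1 kb of the Hoxd1 TSS, so these fragments cannot be assigned to Hoxd1 alone. Hoxa2 had 30 against 11, a ratio of 2.07 (1.007 to 4.57). Hoxb7, at 1.73, and Hoxd13, at 1.60, were past 1.5-fold with intervals that include 1. In all, 5 of 21 members counted, 23.8%, were past 1.5-fold, beside 10.3% of 22632 promoters. Hoxd1 and Hoxb7 reached the minimum of 20 fragments only through the strips where they were high, so the share rests partly on that minimum. Nor was the share matched to that of all promoters for fragments per promoter. In the other direction Hoxc8 had 5 against 19, a ratio of 0.199 (0.0582 to 0.552), 1 of 21 beside 8.39%, and it too reached the minimum through the strips where it was high. Hoxa5 had 15 against 13 promoter fragments, a ratio of 0.874 (0.388 to 1.997), and Hoxc10 43 against 34.

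**Figure D4:**
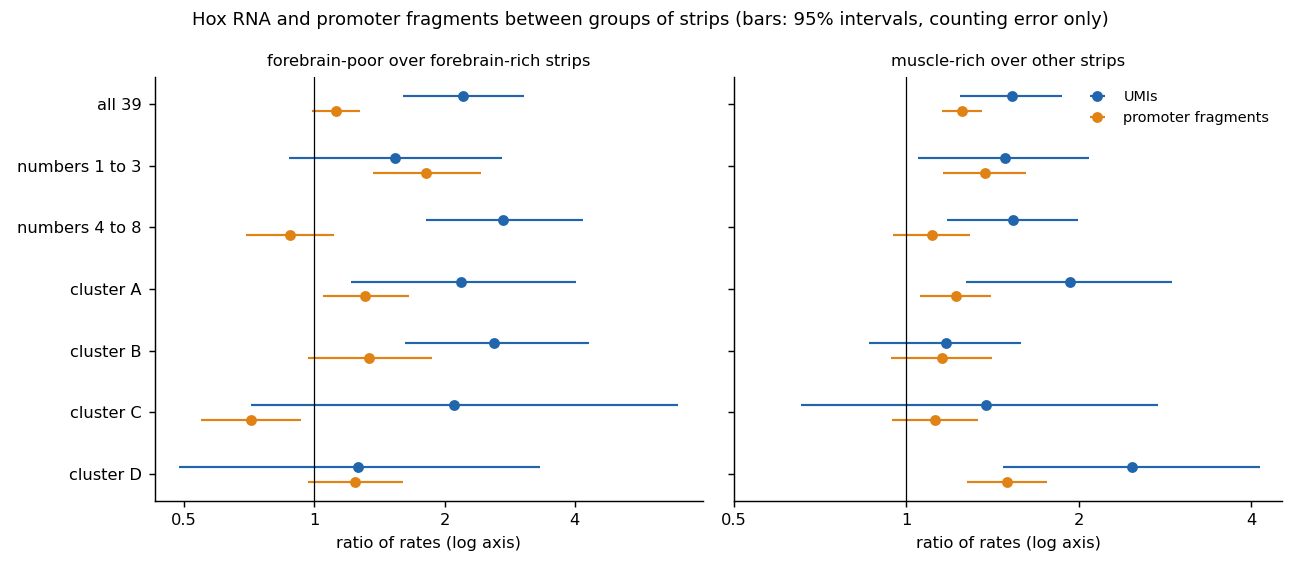
Ratios of Hox UMIs (blue) and promoter fragments (orange) with 95% intervals on a log axis, for forebrain-poor over forebrain-rich strips (left) and muscle-rich over other strips (right), for all members, numbers 1 to 3, numbers 4 to 8 and each cluster. In the left panel the UMIs of numbers 4 to 8 lie at 2.73 and their promoter fragments at 0.878; in the right panel cluster D is highest in both measures, at 2.48 and 1.498.

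Muscle-rich strips had more Hox RNA and more open Hox promoters. The 12 strips highest in the muscle list had 146 Hox UMIs, 66.5 CPM (56.2 to 78.3), and the other 36 had 284, 43.6 CPM (38.7 to 48.95). The ratio was 1.53 (1.24 to 1.87), but 1.196 (0.978 to 1.46) when 16 strips were taken in place of 12. For promoter fragments it was 1.25 (1.15 to 1.36), with 463 against 371 per 1000000 promoter fragments, and 1.09 (0.997 to 1.201) along the first segment. The muscle list itself had 11447 against 4497 CPM. The 12 strips were not alike, running from 5810 CPM, below the 6248 of the library, to 17826. Muscle-rich strips had a median of 32325 fragments per spot against 20423, and other lists moved with them. The connective tissue and bone list had 3073 against 1141 CPM, epithelium 448 against 108, pituitary 389 against 139, choroid plexus 895 against 1447 and neuron 2906 against 3820. The part of depth or of any list was not tested.

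Cluster D stood highest on this axis, with 30 against 36 UMIs, a ratio of 2.48 (1.47 to 4.13), and a promoter ratio of 1.498 (1.28 to 1.76). Cluster A followed with 1.93 (1.27 to 2.91) for UMIs, while B had 1.17 (0.860 to 1.58) and C 1.38 (0.656 to 2.75). The intervals of D and C overlap, and the difference between clusters was not tested. Hoxa5 was the 1 of 8 counted members higher by 2-fold or more, with 22 against 28 UMIs and a ratio of 2.33 (1.27 to 4.23), beside 6.07% of 15739 genes. Hoxb5, in contrast to its behaviour on the forebrain axis, had 9 against 36, a ratio of 0.743 (0.315 to 1.57).

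At promoters, 9 of 38 counted members, 23.7%, were higher by 1.5-fold or more in muscle-rich strips, beside 10.2% of 28555 promoters. The 2 shares were not matched for fragments per promoter, and Hox promoters had a median of 56 against 159 for protein-coding ones. They included the far posterior Hoxc13, with 39 against 33 fragments and a ratio of 2.29 (1.40 to 3.76), Hoxd13 with 42 against 39 (2.09, 1.32 to 3.31), Hoxd8 with 35 against 33 (2.05, 1.24 to 3.41), Hoxa5 with 32 against 37 (1.68, 1.01 to 2.76) and Hoxd1 with 35 against 41 (1.65, 1.02 to 2.66). Hoxa10, Hoxb1, Hoxb3 and Hoxd10 had ratios of 1.54 to 1.72 with intervals that include 1. Past 1.5-fold in the other direction were Hoxa7, at 0.628 (0.298 to 1.23), and Hoxc8, at 0.528 (0.254 to 1.018), 2 of 38, or 5.26%, beside 14.2%, and both intervals include 1. Hoxc13 and Hoxd13 had 1 and 0 UMIs in the library. The window of Hoxd1 also holds the annotated start of Haglr.

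Hox RNA was uneven over single strips. Among 44 second-segment strips with at least 20 spots it ranged from 8.96 to 110.5 CPM, with a median of 44.6, and promoter fragments from 260.9 to 544.0 per 1000000. The highest, with 24 UMIs in 48 spots, had 5 of Hoxb3, 4 of Hoxa5, 4 of Hoxd3 and 11 of other members. Among 49 first-segment strips the range was 9.11 to 216.0 CPM. The highest there had 20 UMIs of 9 members in 29 spots of median depth 3239, and the next, at 194.1 CPM, 11 UMIs of 6 members in 23 spots of depth 2284. Without these strips the library stood at 46.6 CPM (42.1 to 51.4). Against the forebrain list, Spearman's rho was -0.497 over the 44 second-segment strips (Pearson's r -0.413), but -0.268 over all 48 (r -0.204), and 0.0408 over the 49 first-segment strips (r -0.0688). Against the midbrain and hindbrain list, rho was -0.320 over the 44 and 0.372 over the 49 strips. Against UMIs per spot, Pearson's r was -0.160 over the 44 and -0.446 over the 49 strips, and the part of depth was not tested. Strips share depth, library and neighbouring tissue, so these are descriptions.

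**Figure D5:**
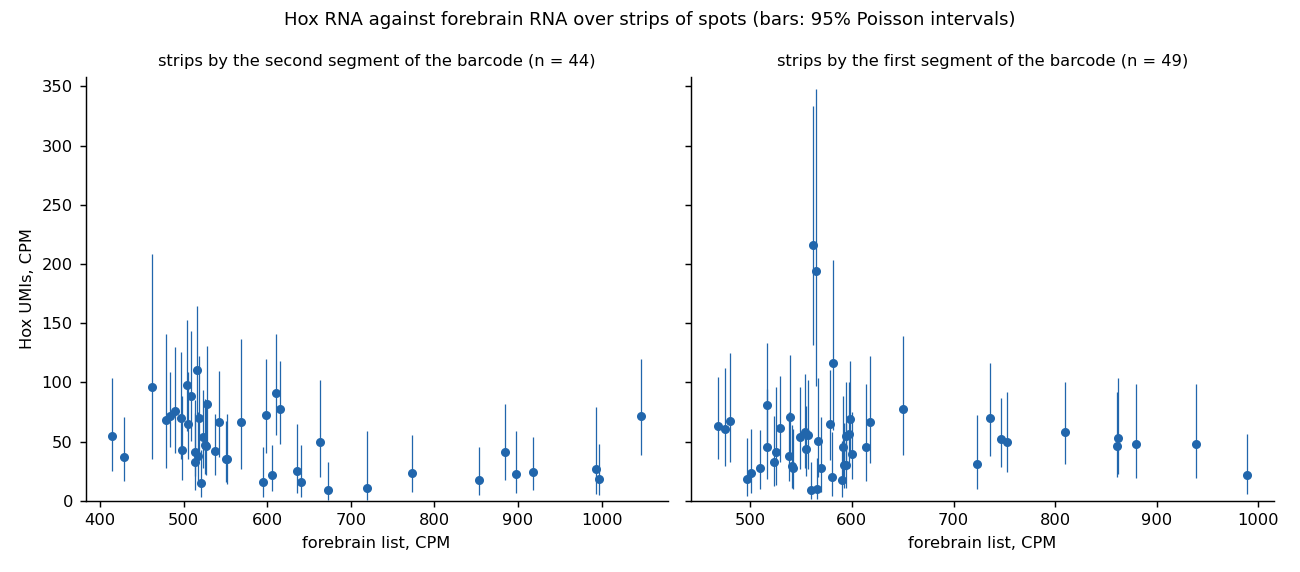
Hox CPM with 95% Poisson intervals against the CPM of the forebrain list, for strips of at least 20 spots sharing the second (left, n = 44) or the first barcode segment (right, n = 49). On the left many strips with high Hox values lie at low forebrain values, but others do not, among them the strip highest in forebrain RNA, at 71.2 CPM; on the right the highest strips reach 194.1 and 216.0 CPM.

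The partners of Hox proteins each had more UMIs than any Hox member. All 9 were detected, among them Meis2 with 4529 UMIs, Pbx3 with 2165, Meis1 with 969, Pknox2 with 796, Meis3 with 559, Pbx2 with 526, Pbx4 with 392 and Pknox1 with 268. None of 9 was past 2-fold in UMIs on either axis: the medians were 0.980 and 0.964, against 0.998 and 0.999 over all genes counted. Since 1.96% and 1.24% of all genes were past 2-fold up and down on the forebrain axis, and 6.07% and 2.10% on the muscle axis, a count of 0 among 9 is near the background. At promoters 0 of 9 were past 1.5-fold on the forebrain axis, beside 10.3% higher and 8.39% lower. On the muscle axis Meis2 was higher at 1.53 (1.15 to 2.04) and Pbx4 lower at 0.470 (0.373 to 0.587), 1 of 9 or 11.1% each way, near the 10.2% and 14.2% of all promoters.

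Of 26 regulators of Hox genes, 23 were detected and 19 had at least 10 UMIs. Those with most UMIs were Kmt2a, which keeps Hox genes active, with 1727, the Polycomb gene Ezh2 with 511, its relative Ezh1 with 369 and Cyp26b1, which degrades retinoic acid, with 320. Cdx2, Cdx4 and Cyp26c1 had 0 UMIs. On the forebrain axis 0 of 17 counted were past 2-fold in UMIs, near the 1.96% higher and 1.24% lower of all genes. On the muscle axis Rarg, a retinoic acid receptor, was higher with 53 against 78 UMIs, a ratio of 2.02 (1.40 to 2.90), and Bmi1, a Polycomb gene, was lower with 6 against 53 and 0.336 (0.118 to 0.782), 1 of 18 in each direction beside 6.07% and 2.10%. The Rarg promoter was also higher, at 2.63 (1.99 to 3.48), as were those of Rarb (1.91, 1.36 to 2.68), Aldh1a2 (1.97, 1.33 to 2.92) and Egr2 (1.53). In all, 5 of 26 were past 1.5-fold, beside 10.2% of all promoters, and 1 of 26, Cdx4 at 0.310, was lower, beside 14.2%.

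The genes whose CPM over the 48 second-segment strips was most like that of the Hox sum, among 7931 with at least 200 UMIs, were S100a1, Stx18, Sv2b, Lrfn3, Smim22, Gpatch4, Grb10, Arap3, Nrk and Idh3a. Their Spearman's rho ran from 0.547 for S100a1 to 0.503 for Idh3a. The most opposed was Auts2, at -0.617. With 430 Hox UMIs over 48 strips such values are weak, and of these 10 genes Gpatch4 alone was also among the 10 most alike over the 50 first-segment strips, at 0.420.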

How the data were processed

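E18.5 tissue of 1 genotype gave 1 library per readout. The authors, per the file headers, ran cellranger-arc 2.0.1 on GRCm38 (mm10; Seurat 4.0 is also named in the submitters' processing notes). The deposited values are raw counts: UMI counts per gene, cut-site counts per peak, and deduplicated fragments. Aligner settings, strand and intron counting were not given in the sources used here. No columns of other samples were used.

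Barcodes were kept that had between 500 and 6000 genes detected and no more than 20% of UMIs from mitochondria. As TSS, the furthest upstream start among principal GENCODE transcripts was taken, and fragments within 1 kb of it were counted. RNA is given in CPM of UMIs and promoters per 1000000 promoter fragments. Strips were ranked by the forebrain or muscle list of marker genes, neither of which holds a Hox gene; the lowest and highest 12, or the highest 12 and the other 36, were compared. A gene was counted at 20 or more UMIs or fragments in both groups together, and called past 2-fold (UMIs) or 1.5-fold (promoters). Intervals are exact Poisson, Clopper-Pearson and conditional binomial at 95%. A count of 0 was limited by 3 counts. Repeated fragments of the same molecule are collapsed, but intervals still cover counting error only. The 13-base CTCF core was planned as an exact match; none was found, so 1 mismatch is reported. Number classes (1 to 3, 4 to 8, 9 to 13) are conventional and were adopted after UMIs had been seen. Named were, apart from genes not reported here, in each cluster the 3 members with most UMIs, members with none, the highest and lowest promoter, and then partners, regulators, other genes in the clusters and the 10 genes most alike over strips; further members were named after their values were seen. The members and lists were chosen with earlier results of these data known. The ratio step was tested on simulated data. Python 3.11.15, numpy 2.4.6, pandas 2.3.3 and scipy 1.17.1 were used. Alternatives were barcode filters, promoter windows, group sizes, the barcode segment, the CPM total, CTCF mismatches and flanks.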

Additional observations from a re-analysis of the deposited data

Results flagged for a closer look

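The 507 barcodes of the fragment file that are not in the count matrix, and so have no RNA values, held 290 Hox promoter fragments (258 to 325). This was 569 per 1000000 promoter fragments (505 to 638), against 402 in the kept spots, a ratio of 1.41 (1.25 to 1.60). These rates are relative to fragments at all promoters. The share of fragments at promoters was not compared between these barcodes and the kept spots. A higher rate per fragment of any kind is therefore not shown. The result was picked out because these barcodes enter none of the comparisons above. The rule by which the matrix barcodes were chosen is not given in the sources used here.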

How the results depend on the processing

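Of 33 alternative values, 27 kept their direction and stayed within the interval or limit of the reported value. One turned: the ratio of Hox UMIs in forebrain-poor over forebrain-rich strips, 2.20, was 0.969 with the first segment of the barcode, and it moved to 1.504 with strips below and above the median. The muscle ratio of UMIs moved from 1.53 to 1.196 with 16 strips in place of 12, and that of promoter fragments from 1.25 to 1.09 with the first segment. Leaving out any 1 strip gave 1.42 to 1.61 for muscle UMIs, 1.21 to 1.28 for muscle promoter fragments and 1.08 to 1.16 for forebrain promoter fragments. The density ratio at CTCF matches moved from 2.55 to 3.03 between the outermost annotated ends and to 1.79 without the match with most insertions, both chosen after seeing the data, as was a minimum of 20 spots per strip. The planned exact match gave no value. The causes were not tested. With 1 library per assay, 7 UMIs over 16 posterior members and mostly under 20 UMIs per member and group, single genes are poorly resolved. No paired analysis was possible because there is 1 library per assay and no comparison between groups of samples.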
